A study of Rattus norvegicus with 20 samples.

Results

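The enzymes of glycolysis, of pyruvate metabolism and of the citric acid cycle were examined in inguinal white adipose tissue (iWAT), a subcutaneous fat depot, of ZSF1 rats. The members were taken as the rows of the gene count table whose gene name stood on a list of 48 enzymes. Of the 48 names 46 were found, 1 of them in another letter case (Idh3B), and they filled 47 of the 32545 rows because Pkm, pyruvate kinase, has a second row. All 47 rows passed the filter on low counts, as did 17653 of all rows. Pdha1 and Pgd were not found under these names and were not analysed here.

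Male ZSF1 rats (ZSF1-Lepr fa Lepr cp/Crl) come from a cross of strains that each carry a leptin receptor mutation. The Obese, Food matched and Cmpd 1 groups lack a working leptin receptor on both alleles, overeat when fed freely and grow obese, while the Lean group keeps at least 1 working allele. All 4 groups were age-matched, were kept on the high carbohydrate chow Purina 5008 and had 5 rats each. Obese rats ate this chow freely. Food matched rats received the amount that the Cmpd 1 group had eaten the week before, and Cmpd 1 rats ate the chow with Cmpd 1, an inhibitor of the protein kinases PKCα and PKCβ, mixed into it. Because leptin receptor deficiency sits in every tissue of the 3 obese groups, the comparison with Lean rats covers genotype, food intake and obesity together.

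Glycolysis splits glucose to pyruvate in the cytosol. Pyruvate is then reduced to lactate, oxidised to acetyl-CoA by the pyruvate dehydrogenase complex, which pyruvate dehydrogenase kinases switch off, or carboxylated to oxaloacetate, and the citric acid cycle oxidises acetyl-CoA in the mitochondrion. White adipocytes also use these steps to make citrate for fatty acid synthesis and, through phosphoenolpyruvate carboxykinase, the glycerol backbone of stored triglyceride.

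Counted reads per library ranged from 31716457 to 74784655. Levels are given as CPM, the read counts divided by the TMM-scaled library sizes, as mean ± SD of 5 rats. The adipocyte markers summed to between 15050 and 24070 CPM in every rat, so the labelled tissue held its defining transcripts. The 10 skeletal muscle markers found summed to 3538 and 6193 CPM in Lean rats 1 and 2, to 97.9 CPM in Food matched rat 5 and to between 8.01 and 25.7 CPM in the other 17 libraries, so the comparisons with Lean were also run without Lean rats 1 and 2. The 10 macrophage markers summed to 1283 to 1881 CPM in Lean, 4092 to 5511 CPM in Obese, 4756 to 7699 CPM in Food matched and 2654 to 3901 CPM in Cmpd 1 animals. Of these 10, 8 rose and 2 fell in Obese versus Lean, and 9 fell in Cmpd 1 versus Food matched. Of the 8 adipocyte markers, 6 fell in Obese versus Lean, and 4 rose and 1 fell in Cmpd 1 versus Food matched. Brown or beige adipocyte markers summed to 80.4 to 109 CPM in Lean and 104 to 186 CPM in the obese groups, nearly all of it Cidea. Ucp1 was at most 1.29 CPM, Elovl3 at most 0.12 CPM and Zic1 at most 0.198 CPM in any rat, and Dio2 was not found. Liver or intestine markers summed to 91.6 to 244 CPM in Lean and 6.56 to 24.2 CPM in the obese groups, and all 4 tested fell in Obese versus Lean. Nearly all of this sum was Alb, except that Lean rat 5 also held Apoa1 (46.2 CPM), Apoa4 (44.04 CPM) and Apob (36.2 CPM). Gland epithelium markers were at most 118 CPM and lymph node markers at most 56.3 CPM, in both cases highest in a Lean rat. In bulk tissue, fewer cells of a type and less RNA per cell cannot be told apart, and the part of these cell type shifts in any result was not tested.

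Obese animals had lower levels of many of these enzymes, among them 7 of the 13 citric acid cycle rows and both glycogen enzymes, and higher levels of a smaller set led by hexokinase 3. In Obese versus Lean, 11 of the 47 rows rose and 18 fell at an adjusted p under 0.05 (edgeR's quasi-likelihood test, adjusted by Benjamini-Hochberg over all genes). These are 23.4% and 38.3% of the rows, against 23.7% higher and 24.5% lower among all genes tested. With a fold change over 1.5 as well, the threshold for a differentially expressed gene (DEG), 3 rows rose (Hk3, Pfkfb3 and Pdk4) and 5 fell (Pfkm, Pc, Idh2, Gys1 and Pygl), where all genes gave 11.3% and 11.0%. The median log2 fold change was −0.052 over the 47 rows and −0.014 over all genes. Without Lean rats 1 and 2, 9 rows rose, 15 fell and 4 were DEGs (Hk3, Pc, Pygl and, in addition, Mdh1), 19.1% and 31.9% of the rows against 21.1% higher and 20.1% lower among all genes. Among all genes 10.6% were then DEGs higher and 8.51% DEGs lower.

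Cmpd 1 treatment was set against food matching to ask which levels differ beyond food intake. In the study Cmpd 1 animals also had lower body weight and less iWAT than Food matched animals, and the part of this in any result was not tested. In Cmpd 1 versus Food matched, 9 rows rose and 7 fell, which is 19.1% and 14.9% of the rows against 11.4% and 11.4% of all genes. Hk3 and Pdk4 were DEGs, both lower, and 0 members were DEGs in the other direction, against 4.65% and 1.54% of all genes. The median log2 fold change was 0.024 over the rows and 0.006 over all genes.

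These main contrasts have no rat in common. Of the 47 rows 14 were called in both, which is 29.8% against 17.7% of all genes, and all 14 moved in opposite directions. Among all genes 3126 were called in both, 96.5% of them in opposite directions, so the opposite sign is also the rule among all genes. Hk3, Pfkp, Eno1, Pkm, Pdk3 and Pdk4 were higher in Obese than Lean and lower in Cmpd 1 than Food matched animals. Pfkl, Ldhb, Pdk2, Pc, Ogdh, Suclg2, Gys1 and Pygl were lower in Obese than Lean and higher in Cmpd 1 than Food matched animals. A further 15 rows were called only in Obese versus Lean and Gpi and Gapdh only in Cmpd 1 versus Food matched; a difference between the contrasts was not tested for these.

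**Figure D1:**
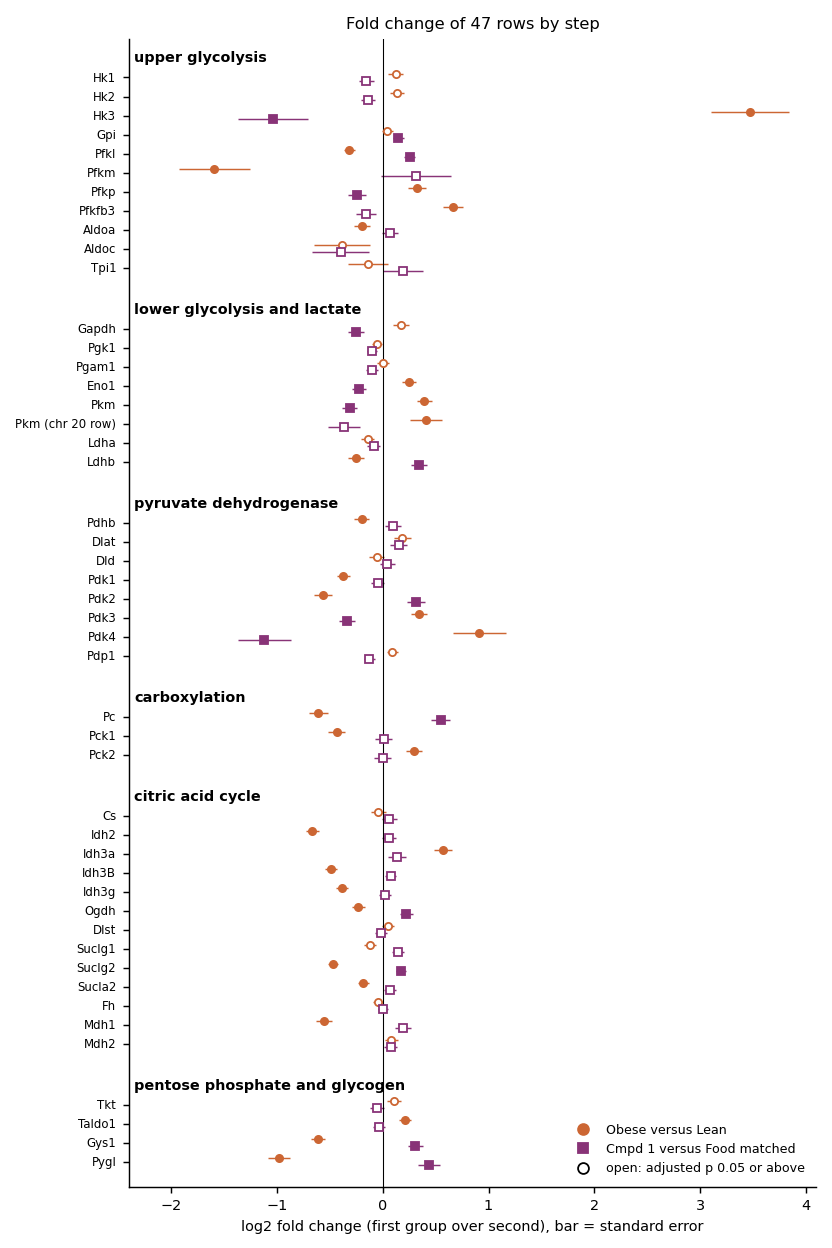
Log2 fold change of each of the 47 rows, grouped by step (vertical axis), in Obese versus Lean (circles) and Cmpd 1 versus Food matched (squares); bars are standard errors and open symbols have an adjusted p of 0.05 or above. Hk3 lies farthest to the right at 3.47 and Pfkm farthest to the left at −1.59 in Obese versus Lean, while Pdk4 at −1.12 and Hk3 at −1.04 are the lowest squares.

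Promoters are shown for the 2 members that were DEGs in both contrasts, Hk3 and Pdk4, and for Pfkfb3 and Pygl, the other DEG increase in Obese versus Lean and, with Pfkm set aside for its dependence on Lean rats 1 and 2, the largest decrease. RefSeq promoters (GRCr8) matched 42 of the 46 names, with the first entry taken for Aldoa, Eno1 and Hk1, which have several. Each line gives the 250 bases before the gene's start, 5′ to 3′, and capitals mark the motif ACGTG on either strand, the core of the hypoxia response element, which also lies within the E-box CACGTG.
Hk3 (chr17:9604781-9605030, plus strand): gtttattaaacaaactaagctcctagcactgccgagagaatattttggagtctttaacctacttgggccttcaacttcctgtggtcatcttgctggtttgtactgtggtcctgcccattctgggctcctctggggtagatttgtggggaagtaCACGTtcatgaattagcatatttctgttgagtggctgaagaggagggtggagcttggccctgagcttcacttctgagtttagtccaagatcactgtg
Pfkfb3 (chr17:71944683-71944932, plus strand): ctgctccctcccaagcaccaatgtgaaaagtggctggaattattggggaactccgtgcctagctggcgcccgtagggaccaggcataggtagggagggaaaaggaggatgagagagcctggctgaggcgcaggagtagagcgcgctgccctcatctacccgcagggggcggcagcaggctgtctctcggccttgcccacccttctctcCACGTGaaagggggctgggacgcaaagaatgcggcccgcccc
Pdk4 (chr4:34568330-34568579, minus strand): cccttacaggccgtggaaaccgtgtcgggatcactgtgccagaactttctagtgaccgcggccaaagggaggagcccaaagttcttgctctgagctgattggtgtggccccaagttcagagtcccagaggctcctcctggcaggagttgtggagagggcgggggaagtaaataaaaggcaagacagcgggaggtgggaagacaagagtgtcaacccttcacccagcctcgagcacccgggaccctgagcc
Pygl (chr6:94476220-94476469, minus strand): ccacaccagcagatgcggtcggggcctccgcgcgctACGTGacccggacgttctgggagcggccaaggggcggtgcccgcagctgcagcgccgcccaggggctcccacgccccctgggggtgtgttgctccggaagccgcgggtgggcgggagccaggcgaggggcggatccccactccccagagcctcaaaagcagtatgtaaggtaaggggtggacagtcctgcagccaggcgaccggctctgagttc

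The Hk3 and Pygl promoters each hold ACGTG, the Pfkfb3 promoter holds it within a full CACGTG, and the Pdk4 promoter shows no capitals, so these letters are not in its window. ACGTG was present in 14 of the 42 member promoters (33.3%) and in 16.6% of all 33469 promoters. CACGTG was present in 5 of 42 (11.9%; Ldha, Pdhb, Pdk2, Ogdh and Pfkfb3) and in 5.59% of all. By direction in Obese versus Lean, ACGTG was in the promoters of 3 of 9 members that rose, 6 of 17 that fell and 5 of 16 not called.

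Among the enzymes that bring glucose into glycolysis, hexokinase 3 (Hk3, an isoform known from leukocytes; rn6 chromosome 17, 10137974 to 10152956, plus strand) had the largest change of the 47 rows. It was measured at 1.605, 3.55, 11.5, 12.9 and 4.63 CPM in Lean rats 1 to 5 and at 62.5, 57.5, 84.4, 94.7 and 80.01 CPM in Obese rats. Food matched rats had 113, 133, 98.2, 105 and 73.2 CPM and Cmpd 1 rats 64.4, 56.2, 45.9, 35.3 and 51.9 CPM. Every obese rat of all 3 groups was above every Lean rat, and every Cmpd 1 rat was below every Food matched rat. Hk3 rose in Obese versus Lean (log2 fold change 3.47, standard error 0.37, adjusted p = 1.8e-07) and fell in Cmpd 1 versus Food matched (log2 fold change −1.04, standard error 0.33, adjusted p = 0.029). Without Lean rats 1 and 2, the lowest of the Lean group, the rise was smaller, at 2.97 (adjusted p = 1.4e-07). All groups shared 1 model, so the spread of the Lean rats also enters the standard error against Food matched. The call against Food matched was lost, with adjusted p between 0.055 and 0.082, without Food matched rat 1 (log2 fold change −1.01) or 2 (−0.94) or without Cmpd 1 rat 3 (−1.003), 4 (−0.93) or 5 (−1.05). Cmpd 1 animals remained above Lean (log2 fold change 2.89, standard error 0.36, adjusted p = 3.4e-06). Without Lean rats 1 and 2 this difference was 2.398 (adjusted p = 3.7e-06).

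Hk3 followed the summed macrophage markers from rat to rat, but not every marker on the list. In every rat of the obese groups Gpnmb was the largest part of this sum. Cmpd 1 rat 1 had the highest Hk3 of its group. It had the group's highest Cd68, Itgam, Trem2, Gpnmb and Ptprc but its lowest Adgre1, Csf1r, Cd14 and Cd163, with Mrc1 between. In each of the 4 groups the rat with the highest summed macrophage markers also had the highest Hk3 and the rat with the lowest sum the lowest Hk3, 8 of 8 extremes, whereas the other 46 rows shared at most 4 of 8. Food matched rat 2, for example, had 7699 CPM of macrophage markers and 133 CPM of Hk3, and Cmpd 1 rat 4 had 2654 and 35.3 CPM. This was seen after the values were known and is given as a description.

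The housekeeping isoform Hk1 and the insulin-responsive isoform Hk2 were called in neither main contrast. Hk1 was at 78.9 ± 6.99 CPM in Lean, 85.8 ± 4.89 in Obese, 85.4 ± 8.52 in Food matched and 76.7 ± 4.63 in Cmpd 1 animals. Hk2 ran from 68.6 ± 5.58 CPM in Lean over 75.01 ± 6.61 in Obese to 82.5 ± 3.95 in Food matched animals, with 74.9 ± 5.16 CPM under Cmpd 1. Their log2 fold changes in Obese versus Lean were 0.12 (95% interval −0.025 to 0.27) and 0.13 (−0.0078 to 0.27). Per kilobase of gene length Hk1 was the most abundant hexokinase in Lean iWAT, at 29.4 CPM per kilobase against 12.6 for Hk2 and 2.09 for Hk3, and in Food matched animals Hk3 reached 31.8 beside 31.8 for Hk1.

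The next enzymes were less changed. Gpi, glucose-6-phosphate isomerase, was at 411 ± 9.25 CPM in Lean and 423 ± 19.2 in Obese animals and rose slightly in Cmpd 1 versus Food matched (log2 fold change 0.15, standard error 0.052, adjusted p = 0.045) but the call was lost without any of Lean rats 2 to 5, Obese rats 2, 4 and 5, Food matched rats 1, 2 and 4 and Cmpd 1 rats 1, 4 and 5 (adjusted p up to 0.13). Phosphofructokinase, the committed step of glycolysis, is built from liver (Pfkl), muscle (Pfkm) and platelet (Pfkp) subunits, and these moved apart. Pfkl fell in Obese versus Lean, from 66.3 ± 1.31 to 53.3 ± 2.08 CPM (log2 fold change −0.32, standard error 0.052, adjusted p = 3.7e-05). It rose in Cmpd 1 versus Food matched, to 66.99 ± 6.198 from 56.1 ± 2.203 CPM (log2 fold change 0.26, standard error 0.052, adjusted p = 0.0015), with no overlap between the groups in either contrast. Cmpd 1 differed from Lean by 0.013 (95% interval −0.094 to 0.12). Pfkp rose in Obese versus Lean, from 44.02 ± 6.37 to 55.1 ± 5.11 CPM (log2 fold change 0.32, standard error 0.086, adjusted p = 0.0041), and fell in Cmpd 1 versus Food matched (log2 fold change −0.24, standard error 0.086, adjusted p = 0.047). The Pfkp groups overlapped, the first call was lost without Lean rats 1 and 2 (log2 fold change 0.19, adjusted p = 0.052), and the second was lost without Obese rat 3 or 5 and without any single Food matched or Cmpd 1 rat other than Food matched rat 5 (adjusted p up to 0.12).

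Pfkm (rn6 chromosome 7, 139685573 to 139722132, plus strand) was at 112, 178, 35.3, 36.9 and 37.8 CPM in Lean rats 1 to 5 and at 29.4, 26.7, 27.6, 23.6 and 25.1 CPM in Obese rats. Food matching gave 21.6, 21.7, 26.8, 24.1 and 29.2 CPM, and Cmpd 1 rats had 28.2, 29.00, 31.3, 35.3 and 30.2 CPM. Lean rats 1 and 2, the libraries with skeletal muscle transcripts, stood far above the other 3 Lean rats. With all rats Pfkm fell in Obese versus Lean (log2 fold change −1.59, standard error 0.33, adjusted p = 5e-04). Without Lean rats 1 and 2 the log2 fold change was −0.47 (standard error 0.093, adjusted p = 0.00043), still called but under the DEG fold. In Cmpd 1 versus Food matched, at 30.8 ± 2.78 and 24.7 ± 3.33 CPM, it was not called (log2 fold change 0.32, 95% interval −0.37 to 1.005). All groups shared 1 model, so the spread of Lean rats 1 and 2 also enters this interval. This contrast was not run without both rats, so the missing call does not show equal levels.

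**Figure D2:**
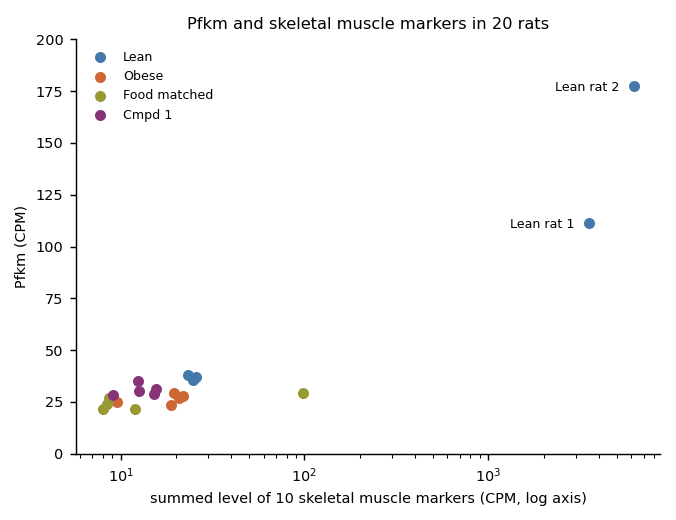
Level of Pfkm (vertical axis, CPM) against the summed level of 10 skeletal muscle markers (horizontal log axis, CPM) in the 20 rats, coloured by group. Lean rats 1 and 2 lie at 112 and 178 CPM of Pfkm with 3538 and 6193 CPM of muscle markers, while the other 18 rats lie between 21.6 and 37.8 CPM of Pfkm.

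Pfkfb3, which makes the bisphosphate that activates phosphofructokinase (rn6 chromosome 17, 70684134 to 70713726, plus strand), had 519, 477, 556, 576 and 674 CPM in Lean and 827, 878, 806, 926 and 1002 CPM in Obese rats. The values were 931, 806, 978, 892 and 813 CPM in Food matched and 831, 762, 641, 918 and 811 CPM in Cmpd 1 rats. All Obese and Food matched rats were above all Lean rats, and 1 Cmpd 1 rat (rat 3) was inside the Lean range. Pfkfb3 rose in Obese versus Lean (log2 fold change 0.66, standard error 0.095, adjusted p = 7.7e-06) and was 0.56 (adjusted p = 0.00018) without Lean rats 1 and 2, where it no longer passed the DEG fold. It was not called in Cmpd 1 versus Food matched (log2 fold change −0.16, 95% interval −0.36 to 0.04) and stayed above Lean in Cmpd 1 animals (log2 fold change 0.50, standard error 0.095, adjusted p = 3e-04).

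Aldolase A (Aldoa), which splits the phosphorylated hexose, fell in Obese versus Lean from 1346 ± 152 to 1173 ± 79.1 CPM (log2 fold change −0.20, standard error 0.075, adjusted p = 0.035). This call was lost without Lean rats 1 and 2 together (log2 fold change −0.098, adjusted p = 0.31), without either of them, and without Obese rat 3, 4 or 5. Aldolase C (Aldoc) and triose phosphate isomerase (Tpi1) were near the low end of detection, at 1.998 ± 0.758 and 2.59 ± 0.648 CPM in Lean animals, and neither was called in any contrast. Their intervals were wide, −0.95 to 0.17 for Aldoc and −0.53 to 0.25 for Tpi1 on the log2 scale in Obese versus Lean. Only uniquely mapped reads were counted, so the level of a gene with near-identical copies elsewhere in the genome is uncertain. Whether this lowered the counts of Tpi1 or Aldoc was not tested.

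In lower glycolysis, Eno1 and Pkm rose in Obese versus Lean and fell in Cmpd 1 versus Food matched, and Ldhb did the reverse. Gapdh was at 632 ± 88.7 CPM in Lean, 714 ± 25.2 in Obese, 733 ± 44.4 in Food matched and 617 ± 47.3 in Cmpd 1 animals, and fell in Cmpd 1 versus Food matched (log2 fold change −0.25, standard error 0.076, adjusted p = 0.021), a call lost without Food matched rat 1 or 3 or Cmpd 1 rat 3 or 4 (adjusted p up to 0.064). In Obese versus Lean it was not called with all rats (log2 fold change 0.18, adjusted p = 0.063) and was called higher without Lean rats 1 and 2 (0.32, adjusted p = 0.00045). Phosphoglycerate kinase (Pgk1) and phosphoglycerate mutase (Pgam1) were called in neither main contrast. Pgk1 was at 334 ± 18.1 CPM and Pgam1 at 365 ± 13.1 CPM in Lean animals, with log2 fold changes of −0.052 (95% interval −0.15 to 0.05) and 0.0009 (−0.12 to 0.12) in Obese versus Lean. Enolase (Eno1) rose from 445 ± 30.6 to 528 ± 24.9 CPM in Obese versus Lean (log2 fold change 0.25, standard error 0.065, adjusted p = 0.0035) and fell in Cmpd 1 versus Food matched (log2 fold change −0.23, standard error 0.065, adjusted p = 0.015), the latter call being lost without Food matched rat 1 (log2 fold change −0.19, adjusted p = 0.051).

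Pyruvate kinase (Pkm, rn6 chromosome 8, 64481172 to 64502722, plus strand) forms pyruvate and ATP at the end of glycolysis. It had 287, 329, 292, 296 and 278 CPM in Lean and 379, 368, 409.5, 415 and 373 CPM in Obese rats. In the Food matched group the rats had 467, 403, 440.3, 396 and 371 CPM, and with Cmpd 1 they had 373, 328, 302, 304 and 364 CPM. Obese and Lean rats did not overlap, and Cmpd 1 rat 1 alone reached the lower edge of the Food matched range, with the other 4 below it. Pkm rose in Obese versus Lean (log2 fold change 0.39, standard error 0.071, adjusted p = 0.00011) and fell in Cmpd 1 versus Food matched (log2 fold change −0.31, standard error 0.071, adjusted p = 0.0032). The second Pkm row, on chromosome 20, was at 4.57 ± 0.407 CPM in Lean animals. Its deposited length is similar (2074 against 2140 bases), but it spans only 2417 bases of the genome against 21551 for the chromosome 8 row. Its level is uncertain because reads of a similar copy could have been split between the rows. This row rose in Obese versus Lean (log2 fold change 0.41, standard error 0.15, adjusted p = 0.031), without Lean rats 1 and 2 it was 0.40 (adjusted p = 0.082), the call was also lost without Lean rat 1 or 4 or Obese rat 3 or 4, and in Cmpd 1 versus Food matched it was −0.37 (adjusted p = 0.087).

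Lactate dehydrogenase joins subunits A and B, of which the A form is known to favour lactate formation. Ldhb fell from 497 ± 20.7 CPM in Lean to 416 ± 35.2 in Obese animals (log2 fold change −0.26, standard error 0.075, adjusted p = 0.0074) and was 377 ± 46.7 CPM with food matching and 479 ± 27.04 with Cmpd 1, a rise with Cmpd 1 (log2 fold change 0.34, standard error 0.075, adjusted p = 0.0025) with no overlap. Ldha averaged 672 ± 21.9 CPM in the Lean group, 609 ± 37.3 in Obese, 584 ± 59.9 in Food matched and 550.03 ± 23.5 in Cmpd 1, and was called in neither main contrast, with log2 fold changes of −0.14 (adjusted p = 0.066) and −0.086 (0.36). It fell in Cmpd 1 versus Lean (log2 fold change −0.29, standard error 0.062, adjusted p = 9e-04). The ratio of Ldha to Ldhb per kilobase was 1.13 ± 0.0606 in Lean, 1.23 ± 0.0489 in Obese, 1.303 ± 0.104 in Food matched and 0.964 ± 0.0593 in Cmpd 1 animals. Every Cmpd 1 rat (0.863 to 1.005) was below every rat of the other groups, the lowest of which was a Lean rat at 1.05.

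Of the pyruvate dehydrogenase members, the kinases Pdk3 and Pdk4 rose and the kinases Pdk1 and Pdk2 and the subunit Pdhb fell in Obese versus Lean, where 23.7% of all genes were higher and 24.5% lower. The E1 beta subunit (Pdhb) was at 141 ± 6.77 CPM in Lean and 123 ± 12.99 in Obese animals and fell (log2 fold change −0.20, standard error 0.074, adjusted p = 0.03). This call was lost without Lean rats 1 and 2 (log2 fold change −0.17, adjusted p = 0.12) and without any of Lean rats 2 and 3 and Obese rats 2, 3 and 4. The E2 subunit Dlat was at 111 ± 10.1 and 126 ± 11.9 CPM and the E3 subunit Dld at 398 ± 30.99 and 382 ± 45.9 CPM, and neither was called in either main contrast. Their log2 fold changes in Cmpd 1 versus Food matched were 0.15 (95% interval −0.019 to 0.32) and 0.044 (−0.11 to 0.20).

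Pyruvate dehydrogenase kinase 4 (Pdk4, rn6 chromosome 4, 30546664 to 30556814, minus strand), the isoform known to rise in fasting and fatty acid use, had 33.00, 37.2, 67.4, 68.7 and 54.4 CPM in Lean and 61.9, 85.95, 87.6, 118 and 137 CPM in Obese rats. In the Food matched group it was at 177, 158, 216, 135 and 83.8 CPM and under Cmpd 1 at 60.5, 69.2, 63.1, 60.8 and 99.95 CPM. The Obese and Lean ranges overlapped, and in the other contrast Food matched rat 5 was below Cmpd 1 rat 5 while the other 4 rats of each group were apart. Pdk4 rose in Obese versus Lean (log2 fold change 0.91, standard error 0.25, adjusted p = 0.0049) and fell in Cmpd 1 versus Food matched (log2 fold change −1.12, standard error 0.25, adjusted p = 0.003). Without Lean rats 1 and 2, the lowest of the Lean group, the first was 0.63 (adjusted p = 0.058) and no longer called. The difference of Cmpd 1 from Obese was −0.47 (95% interval −0.99 to 0.046) and that of Food matched from Obese 0.65 (0.13 to 1.17), neither called.

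Pdk2, the widely expressed isoform (rn6 chromosome 10, 82839153 to 82852660, minus strand), moved the other way. It had 46.4, 51.5, 39.9, 35.05 and 41.5 CPM in Lean and 30.9, 30.6, 25.99, 28.02 and 29.5 CPM in Obese rats. Food matched rats had 24.99, 26.4, 29.4, 29.3 and 30.7 CPM and Cmpd 1 rats 35.5, 34.7, 30.4, 37.6 and 36.8 CPM. Lean and Obese did not overlap, and Cmpd 1 rat 3 alone was inside the Food matched range. Pdk2 fell in Obese versus Lean (log2 fold change −0.56, standard error 0.087, adjusted p = 1.8e-05) and rose in Cmpd 1 versus Food matched (log2 fold change 0.31, standard error 0.087, adjusted p = 0.012). The first was −0.42 (adjusted p = 0.00027) without Lean rats 1 and 2.

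Pdk1 and Pdk3 are the other kinase isoforms. Pdk1 was at 39.2 ± 3.91 CPM in Lean animals and fell in Obese versus Lean to 30.3 ± 1.76 CPM (log2 fold change −0.37, standard error 0.058, adjusted p = 2.2e-05), and Food matched and Cmpd 1 animals had 29.9 ± 1.27 and 28.8 ± 0.7998 CPM (log2 fold change −0.05, 95% interval −0.17 to 0.072). Pdk3, the least abundant kinase per kilobase (4.002 CPM per kilobase in Lean iWAT), rose from 8.99 ± 0.767 to 11.4 ± 0.449 CPM in Obese versus Lean (log2 fold change 0.34, standard error 0.075, adjusted p = 0.00076), and fell to 9.99 ± 1.07 CPM with Cmpd 1 from 12.6 ± 0.852 CPM with food matching (log2 fold change −0.34, standard error 0.075, adjusted p = 0.0031), with no overlap in either contrast. Per kilobase, the ratio of Pdk4 to Pdk2 ran from 0.554 to 1.53 in Lean iWAT. It was lowest in Lean rats 1 and 2, which had the lowest Pdk4 and the highest Pdk2 of their group. The mean ratio was 0.995 ± 0.438 in Lean, 2.65 ± 0.827 in Obese, 4.32 ± 1.49 in Food matched and 1.57 ± 0.337 in Cmpd 1 animals. The ratio of Pdk1 to Pdk2 was 0.715 ± 0.0642, 0.812 ± 0.0369, 0.825 ± 0.0598 and 0.641 ± 0.0415 in the same order. The phosphatase Pdp1, which switches the complex back on, was at 38.3 ± 1.98 CPM in Obese and 34.1 ± 2.84 in Cmpd 1 animals, was called in neither main contrast and fell in Cmpd 1 versus Obese (log2 fold change −0.17, standard error 0.053, adjusted p = 0.041).

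**Figure D3:**
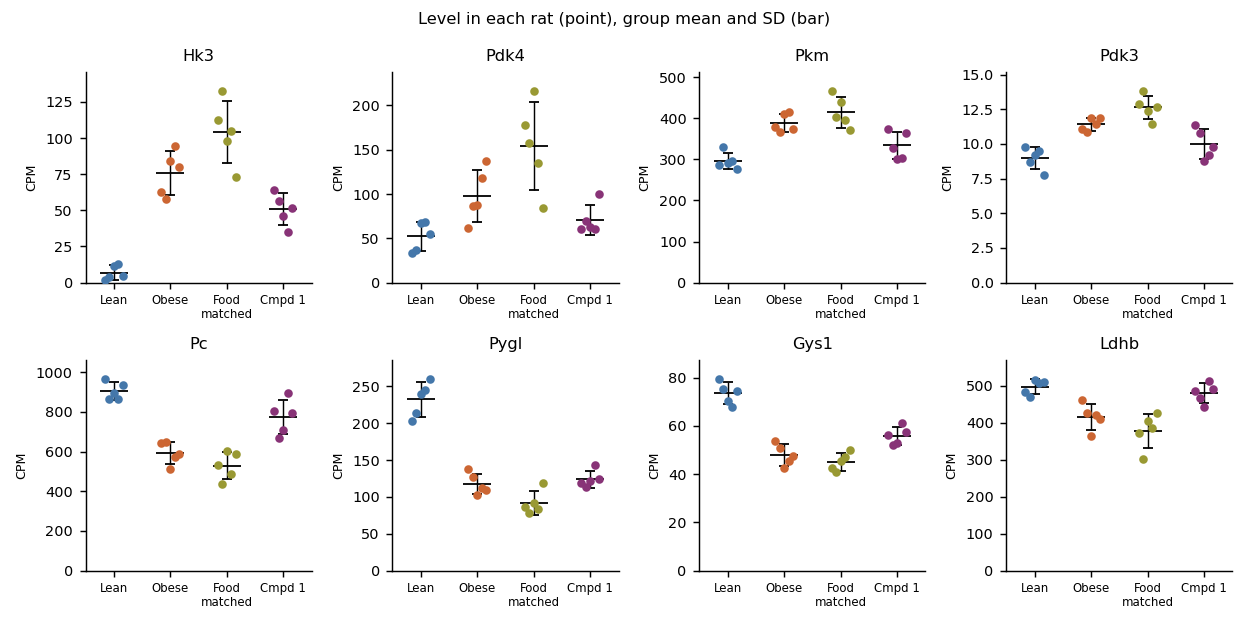
Level in CPM (vertical axis, from 0) of 8 members in each rat (points) of the 4 groups, with group mean and SD. Hk3, Pdk4, Pkm and Pdk3 in the upper row are higher in Obese than Lean and lower in Cmpd 1 than Food matched animals, and Pc, Pygl, Gys1 and Ldhb in the lower row show the opposite; mean Hk3 runs from 6.85 CPM in Lean to 104 CPM in Food matched animals.

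Pyruvate carboxylase (Pc, rn6 chromosome 1, 219759183 to 219859848, plus strand), which makes oxaloacetate and so supplies citrate for fatty acid synthesis, showed the largest rise with Cmpd 1 of the 47 rows. It had 966, 865, 893, 863 and 936 CPM in Lean and 645, 647, 512, 573 and 589 CPM in Obese rats. The values were 535, 436, 602, 487 and 588 CPM in Food matched and 802, 671, 709, 895 and 795 CPM in Cmpd 1 rats. Every Obese rat was below every Lean rat, every Cmpd 1 rat was above every Obese and Food matched rat, and Cmpd 1 rat 4 reached into the Lean range. Pc fell in Obese versus Lean (log2 fold change −0.61, standard error 0.089, adjusted p = 9.7e-06), rose in Cmpd 1 versus Food matched (log2 fold change 0.55, standard error 0.089, adjusted p = 0.00029) and rose in Cmpd 1 versus Obese (log2 fold change 0.38, standard error 0.089, adjusted p = 0.0081). Against Lean, Cmpd 1 differed by −0.22 (95% interval −0.41 to −0.039, adjusted p = 0.051).

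The phosphoenolpyruvate carboxykinases, cytosolic Pck1 and mitochondrial Pck2, did not follow Pc. Pck1, which drives glyceroneogenesis in fat, was the most abundant member per kilobase in Lean iWAT (1061 CPM per kilobase) and fell from 2780 ± 299 in Lean to 2054 ± 75.6 CPM in Obese animals (log2 fold change −0.44, standard error 0.08, adjusted p = 0.00012). Food matched and Cmpd 1 animals had 1807 ± 210.4 and 1816 ± 124 CPM, a log2 difference of 0.0074 (95% interval −0.16 to 0.17). Pck2 rose from 27.8 ± 3.11 to 34.1 ± 0.388 CPM in Obese versus Lean (log2 fold change 0.30, standard error 0.077, adjusted p = 0.0031) and differed by −0.0028 (−0.16 to 0.16) between Cmpd 1 and Food matched. The ratio of Pck1 to Pck2 per kilobase was 73.9 ± 8.097 in Lean, 44.2 ± 1.89 in Obese, 39.7 ± 1.88 in Food matched and 40.3 ± 3.45 in Cmpd 1 animals, with every Lean rat above every other rat.

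**Figure D4:**
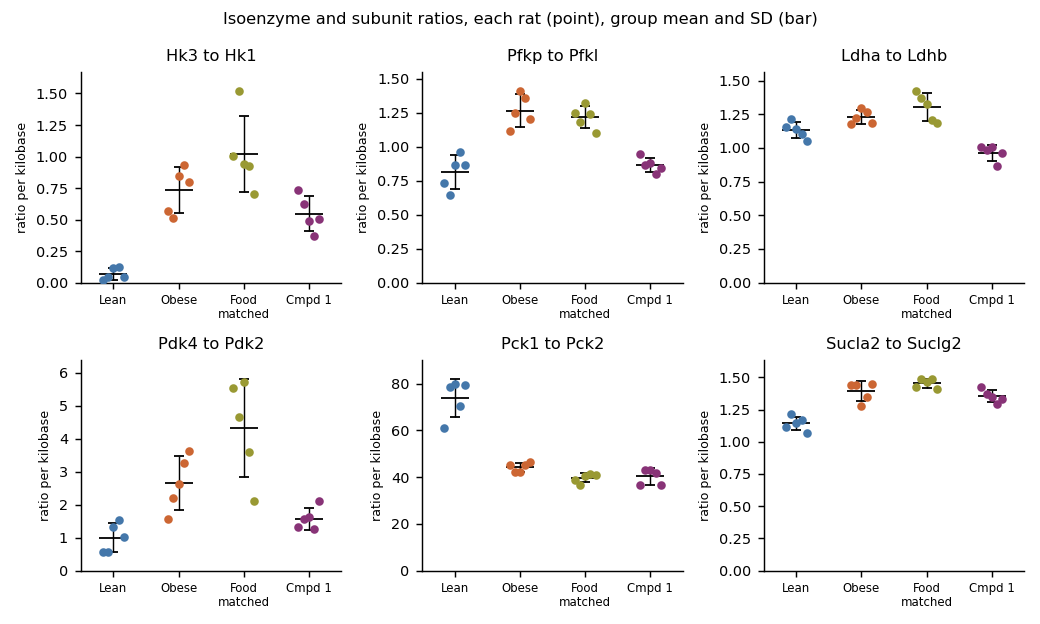
Ratio per kilobase of gene length (vertical axis, from 0) of 6 isoenzyme or subunit pairs in each rat (points) of the 4 groups, with group mean and SD. Hk3 to Hk1, Pfkp to Pfkl and Pdk4 to Pdk2 are higher on average in Obese and Food matched than in Lean and Cmpd 1 animals, Ldha to Ldhb is lowest in Cmpd 1 animals at 0.964, and Pck1 to Pck2 is highest in Lean animals at 73.9.

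Of the 13 citric acid cycle rows, 7 fell and 1 rose in Obese versus Lean, against 24.5% lower and 23.7% higher among all genes. With Cmpd 1 versus Food matched, 2 of the 13 rose and 0 fell, against 11.4% of all genes called in each direction, and 11 were not called. Citrate synthase (Cs), the entry of the cycle, was at 358 ± 25.2 CPM in Lean and 347 ± 27.1 in Obese animals (log2 fold change −0.042, 95% interval −0.19 to 0.10). The NADP-dependent mitochondrial isocitrate dehydrogenase Idh2 (rn6 chromosome 1, 141866283 to 141893705, minus strand) had the smallest adjusted p of all 47 rows in Obese versus Lean. It had 159.9, 180.5, 145, 133 and 155 CPM in Lean and 94.3, 96.6, 101, 101 and 95.3 CPM in Obese rats. In the Food matched group the rats had 94.4, 93.9, 94.3, 88.03 and 91.05 CPM, and with Cmpd 1 they had 98.1, 90.5, 87.4, 107 and 97.4 CPM. All 15 obese rats, Cmpd 1 included, lay below the lowest Lean rat. Idh2 fell in Obese versus Lean (log2 fold change −0.67, standard error 0.065, adjusted p = 5.2e-08), was at −0.57 (adjusted p = 3.7e-07) without Lean rats 1 and 2, and was not called in Cmpd 1 versus Food matched (log2 fold change 0.057, 95% interval −0.078 to 0.19).

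The subunits of the NAD-dependent isocitrate dehydrogenase, catalytic alpha (Idh3a) with beta (Idh3B) and gamma (Idh3g), did not move together. Idh3a had 86.8, 113, 108, 97.2 and 97.7 CPM in Lean and 167, 154, 119, 151 and 156 CPM in Obese rats. Idh3B was at 222, 205, 202, 189.7 and 195 CPM in Lean and 158, 146, 137, 142 and 139 CPM in Obese rats, and Idh3g at 194, 185, 186, 173 and 177 CPM in Lean and 152, 143, 131, 137 and 136 CPM in Obese rats. Every Obese rat was above every Lean rat for Idh3a and below every Lean rat for Idh3B and Idh3g. Idh3a rose (log2 fold change 0.57, standard error 0.085, adjusted p = 1.2e-05) while Idh3B fell (log2 fold change −0.49, standard error 0.056, adjusted p = 3.6e-07) and Idh3g fell (log2 fold change −0.39, standard error 0.057, adjusted p = 1.2e-05). Without Lean rats 1 and 2 the log2 fold changes were 0.57, −0.44 and −0.35, all still called. None was called between Cmpd 1 and Food matched, with differences of 0.13 (95% interval −0.046 to 0.31), 0.073 (−0.043 to 0.19) and 0.024 (−0.095 to 0.14). In Cmpd 1 versus Lean Idh3a was still higher (0.63, adjusted p = 7.4e-06) and Idh3B (−0.44, 3.3e-06) and Idh3g (−0.41, 1.2e-05) still lower.

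**Figure D5:**
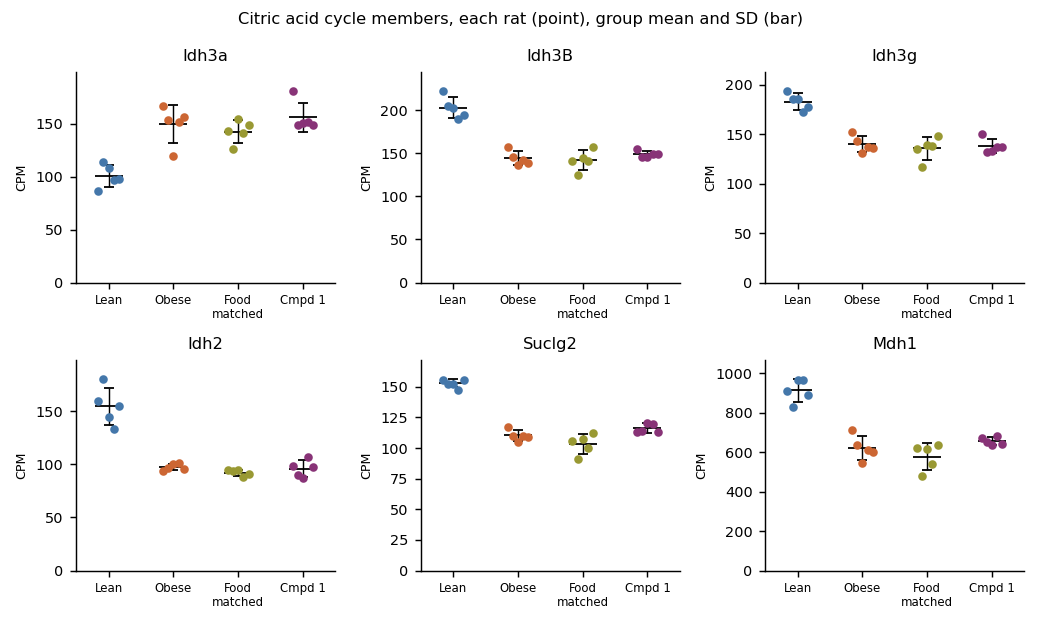
Level in CPM (vertical axis, from 0) of 6 citric acid cycle members in each rat (points) of the 4 groups, with group mean and SD. Idh3a is higher in all 3 obese groups than in Lean animals, and Idh3B, Idh3g, Idh2, Suclg2 and Mdh1 are lower in them; mean Idh3a is 101 CPM in Lean and 150 CPM in Obese animals.

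Of the oxoglutarate dehydrogenase complex, Ogdh, its E1 subunit, fell from 605 ± 53.8 to 515 ± 25.7 CPM in Obese versus Lean (log2 fold change −0.23, standard error 0.064, adjusted p = 0.0055) and rose in Cmpd 1 versus Food matched, to 540.01 ± 33.5 from 463 ± 32.9 CPM (log2 fold change 0.22, standard error 0.064, adjusted p = 0.016; adjusted p = 0.05 without Cmpd 1 rat 4), whereas its E2 subunit Dlst was called in neither contrast, at 213 ± 10.3 CPM in Lean and 220.3 ± 15.5 in Obese animals (log2 fold change 0.048, 95% interval −0.071 to 0.17). Succinyl-CoA ligase pairs a shared alpha subunit (Suclg1) with a GTP-forming (Suclg2) or an ATP-forming (Sucla2) beta subunit. Suclg2 fell from 153 ± 3.37 to 110.3 ± 4.203 CPM in Obese versus Lean (log2 fold change −0.47, standard error 0.047, adjusted p = 7.2e-08) and rose slightly in Cmpd 1 versus Food matched (log2 fold change 0.17, standard error 0.047, adjusted p = 0.013), with no overlap in either. Sucla2 fell less, from 165 ± 6.29 to 145 ± 12.3 CPM (log2 fold change −0.18, standard error 0.054, adjusted p = 0.0082), a call not kept without Lean rats 1 and 2 (log2 fold change −0.16, adjusted p = 0.055). Suclg1 was at 296 ± 20.7 CPM in Lean and 272 ± 10.9 in Obese animals (−0.12, adjusted p = 0.092). The ratio of Sucla2 to Suclg2 per kilobase was 1.14 ± 0.0534 in Lean, 1.39 ± 0.07704 in Obese, 1.45 ± 0.0337 in Food matched and 1.35 ± 0.0491 in Cmpd 1 animals.

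Fumarase (Fh) was called in neither main contrast, at 111 ± 5.41 CPM in Lean and 108 ± 5.96 CPM in Obese animals (log2 fold change −0.048, 95% interval −0.15 to 0.055). The malate dehydrogenases parted by compartment. The cytosolic Mdh1 fell from 913 ± 58.1 to 621 ± 60.4 CPM in Obese versus Lean (log2 fold change −0.56, standard error 0.075, adjusted p = 3.7e-06), and without Lean rats 1 and 2 it was −0.60 (adjusted p = 1.1e-05) and a DEG. The mitochondrial Mdh2 was at 309 ± 2.13 and 327 ± 20.5 CPM (log2 fold change 0.081, 95% interval −0.049 to 0.21). In Cmpd 1 versus Food matched Mdh1 was at 0.19 (adjusted p = 0.077) and Mdh2 at 0.074 (0.45).

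Both glycogen enzymes fell in Obese versus Lean and rose in Cmpd 1 versus Food matched. Glycogen synthase 1 (Gys1, rn6 chromosome 1, 101427195 to 101447092, plus strand) had 79.4, 75.3, 70.5, 67.9 and 74.6 CPM in Lean and 53.9, 50.8, 42.4, 45.4 and 47.6 CPM in Obese rats. In the Food matched group it was at 42.5, 40.9, 45.3, 46.9 and 50.2 CPM and under Cmpd 1 at 56.2, 51.9, 52.7, 61.1 and 57.5 CPM. Gys1 fell in Obese versus Lean (log2 fold change −0.62, standard error 0.068, adjusted p = 2.5e-07) and rose in Cmpd 1 versus Food matched (log2 fold change 0.31, standard error 0.068, adjusted p = 0.0028), with no overlap in either, and was −0.56 in Obese versus Lean without Lean rats 1 and 2. Glycogen phosphorylase of the liver form (Pygl, rn6 chromosome 6, 92597706 to 92643847, minus strand) had 203, 214, 240.2, 245 and 260.1 CPM in Lean and 138, 126, 103, 112 and 109.9 CPM in Obese rats. Food matched rats had 86.4, 78.2, 91.9, 83.2 and 119 CPM and Cmpd 1 rats 118, 114, 121, 143 and 124 CPM. Food matched rat 5 alone reached the Cmpd 1 range. Pygl fell in Obese versus Lean (log2 fold change −0.98, standard error 0.10, adjusted p = 1.5e-07), rose in Cmpd 1 versus Food matched (log2 fold change 0.43, standard error 0.10, adjusted p = 0.0046) and remained lower in Cmpd 1 than in Lean animals (log2 fold change −0.91, standard error 0.10, adjusted p = 1.1e-06).

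In the pentose phosphate pathway, transaldolase (Taldo1) rose from 231 ± 9.27 to 267 ± 18.4 CPM in Obese versus Lean (log2 fold change 0.21, standard error 0.056, adjusted p = 0.0042), and transketolase (Tkt) was at 434 ± 40.9 and 468 ± 18.3 CPM (0.11, 95% interval −0.031 to 0.25). Neither was called in Cmpd 1 versus Food matched, with log2 fold changes of −0.035 (−0.15 to 0.082) and −0.057 (−0.20 to 0.081).

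Food matching was compared with free feeding in obese rats. The study reports that intake in the inhibitor-treated group, which set the ration, rose and ended close to that of freely fed obese rats. A missing call here therefore does not show that eating less leaves a level unchanged. In Food matched versus Obese 0 of the 47 rows were higher and 0 lower (edgeR; smallest adjusted p 0.18), as for all genes, of which 0% were called in either direction, as DEGs or otherwise. At an unadjusted p under 0.05 there were 5 rows, 1 higher and 4 lower, which is 10.6% of the rows against 10.7% of all genes. DESeq2 called 1 (Pygl, lower) and limma-voom 0. The log2 differences were 0.65 for Pdk4 (95% interval 0.13 to 1.17), 0.49 for Aldoc (−0.074 to 1.05) and 0.46 for Hk3 (−0.23 to 1.15).

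In Cmpd 1 versus Obese, 4 rows rose (Pfkl, Pdk2, Pc and Gys1) and 2 fell (Pkm and Pdp1), 8.51% and 4.26% of the rows against 7.09% and 6.93% of all genes, and 0 were DEGs in either direction against 0.731% and 2.80%. Pfkl changed by 0.33 (adjusted p = 0.00088), Pdk2 by 0.27 (0.042), Gys1 by 0.22 (0.037) and Pkm by −0.22 (0.044). This contrast shares the Cmpd 1 rats with Cmpd 1 versus Food matched and the Obese rats with Obese versus Lean. Hk3 (log2 fold change −0.58, adjusted p = 0.27) and Pdk4 (−0.47, 0.22) were not called in it.

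Cmpd 1 animals still differed from Lean ones in 20 of the 47 rows. Here 4 rows were higher (Hk3, Pfkfb3, Pck2 and Idh3a) and 16 lower, 8.51% and 34.0% of the rows against 20.3% and 18.6% of all genes. Of these, Hk3 and Idh3a were DEGs higher and Pfkm, Pck1, Idh2 and Pygl DEGs lower, where all genes gave 7.47% and 9.11%. Among the citric acid cycle rows 1 was higher and 7 were lower than in Lean, with Idh2 at −0.69 (adjusted p = 1.2e-07), Mdh1 at −0.47 (4.8e-05) and Suclg2 at −0.40 (1.7e-06). Pck1 was at −0.61 (4.8e-06). Without Lean rats 1 and 2 there were 5 rows higher, 13 lower and 5 DEGs, with 10.6% and 27.7% of the rows against 17.2% and 14.2% of all genes. Among all genes 6.78% were then DEGs higher and 6.49% DEGs lower. Pfkm was then at −0.26 (adjusted p = 0.044) in place of −1.38 and was no longer a DEG. The calls of Pgk1, Pdk2 and Sucla2 were lost (adjusted p = 0.15, 0.17 and 0.15), and Pkm was called higher (0.21, adjusted p = 0.049).

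The surrounding enzymes and transporters of carbohydrate metabolism were counted on a list of 50 further genes, of which 48 were found and 47 tested. In Obese versus Lean 7 rose and 21 fell, 14.9% and 44.7% of those tested against 23.7% and 24.5% of all genes. Of these, 3 and 12 were DEGs (11.3% and 11.0% of all genes), and the median log2 fold change was −0.107 against −0.014 over all genes. Leaving out Lean rats 1 and 2, these counts were 7 and 16, with 3 and 6 DEGs, where all genes gave 21.1% higher and 20.1% lower, with 10.6% and 8.51% as DEGs. The 3 DEGs that rose were mitochondrial glycerol-3-phosphate dehydrogenase Gpd2, from 10.8 ± 1.47 to 23.5 ± 2.997 CPM (log2 fold change 1.12, standard error 0.12, adjusted p = 3e-07), the cytosolic aspartate aminotransferase Got1 (log2 fold change 0.70, standard error 0.084, adjusted p = 8.1e-07) and Pfkfb4 (log2 fold change 0.81, standard error 0.17, adjusted p = 0.00043). The 12 DEGs that fell included Mlxipl, which encodes the glucose-sensing factor ChREBP, from 51.3 ± 4.27 to 23.98 ± 5.698 CPM (log2 fold change −1.096, standard error 0.14, adjusted p = 1.2e-06), Pdhx, a structural subunit of pyruvate dehydrogenase (log2 fold change −0.65, standard error 0.061, adjusted p = 3.7e-08), and Pfkfb1 (log2 fold change −0.81, standard error 0.08, adjusted p = 5.9e-08). Also lower were Me3 (−1.46, adjusted p = 5.7e-06), Pgm1 (−0.84, 1.6e-05) and Ppp1r3c (−1.004, 0.0017). With Lean rats 1 and 2 left out, Pgm1 was at −0.52 and Ppp1r3c at −0.30, both still called but below the DEG fold. The muscle isoforms Pgam2, Eno3, Pygm and Fbp2 fell with all rats (−6.28, −3.94, −4.74 and −2.604) and were at −0.89, −0.098, −0.41 and 0.49, none called, without Lean rats 1 and 2.

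Of the 47 surrounding genes, 7 rose and 6 fell in Cmpd 1 versus Food matched, 14.9% and 12.8% against 11.4% each way among all genes. The DEGs were the mitochondrial malic enzyme Me3, which rose from 2.404 ± 0.664 to 3.67 ± 0.452 CPM (log2 fold change 0.60, standard error 0.21, adjusted p = 0.04), and Gpd2, which fell from 26.7 ± 3.55 to 16.99 ± 3.05 CPM (log2 fold change −0.65, standard error 0.12, adjusted p = 0.00091).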

How the data were processed

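iWAT RNA of 20 ZSF1 rats was sequenced with a stranded mRNA kit. The authors mapped reads to rn6 with STAR, counted uniquely mapped reads per Ensembl gene with featureCounts and deposited raw counts with gene positions and lengths. The study's methods and the submitters' processing notes give different STAR versions (the notes give 2.5.2, and a human genome build for this rat table), and how featureCounts treated strand is not given in the sources used here, which leaves overlapping genes on opposite strands uncertain. Food matched samples carry the phenotype label lean but titles of obese rats, and were treated as obese.

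Following the study's methods, genes at 0 reads in at least 10 of 20 libraries were dropped, which kept 17653 of 32545. edgeR 4.0.16 under R 4.3.3 fitted 1 quasi-likelihood model of the 4 groups with TMM scaling (16 residual degrees of freedom), with Benjamini-Hochberg adjustment across every tested gene. Contrast intervals are 95% intervals from the same fit. The model was also run on counts simulated from the mean levels and spreads of these same libraries. Such a run checks the code and cannot show how well the model fits the real libraries. CPM use TMM-scaled library sizes. With 31716457 to 74784655 counted reads per library, counting error is largest for rows with few reads, such as Aldoc, Tpi1 and, in Lean rat 1, Hk3. Ratios between members use CPM per kilobase and carry no test. Alternatives were other scalings (DESeq2 1.42.0 size factors, library size alone), no filter or edgeR's own filter, limma-voom (limma 3.58.1), DESeq2, fits of only the groups compared, a block for the replicate number, leaving out each rat, and leaving out Lean rats 1 and 2 together.

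The members, the marker lists and the surrounding genes were chosen with earlier results of these data known. All members are named, and values of every rat are given for each member that was a DEG in either main contrast and for the member of each step with the smallest adjusted p; those of Idh3a, Idh3B and Idh3g were added after their values were seen. Surrounding genes are named only where they were DEGs in a main contrast. Each rat is 1 replicate.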

Additional observations from a re-analysis of the deposited data

Results flagged for a closer look

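Each of 47 rows was checked in each of the 4 groups for a rat that stood apart from the other 4 by Dixon's criterion (a gap over 0.71 of the group's range), and 8 of 188 groups had one. Chance gives about 1 in 20. Pdk4 was 99.95 CPM in Cmpd 1 rat 5 against 60.53 to 69.18 CPM in the other 4, which is the rat that overlaps the Food matched range. Idh3a was 180.7 CPM in Cmpd 1 rat 1 against 148.4 to 151.4 CPM, and Idh3g in the same rat was 150 CPM against 132.4 to 137.1 CPM. Pdhb was 153.2 CPM in Lean rat 2 against 136.9 to 140.1 CPM, and Dlat was 92.58 CPM in Lean rat 1 against 113.7 to 116.8 CPM; both libraries hold skeletal muscle transcripts. In Food matched rat 5 Pdp1 was 35.82 CPM against 37.56 to 38.28 CPM and Aldoc 1.185 CPM against 2.185 to 2.613 CPM. Tpi1 was 1.451 CPM in Obese rat 3 against 2.347 to 2.792 CPM.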

How the results depend on the processing

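In the Obese versus Lean comparison 8 members were DEGs, and 4 without Lean rats 1 and 2; over single rats left out the DEG count ran from 7 to 10, the members higher from 10 to 12 and the members lower from 16 to 19. For Cmpd 1 against Food matched, leaving out 1 rat gave 7 to 10 members higher, 3 to 8 lower and 1 to 3 DEGs, with the 3 lower without Food matched rat 1, 4 lower without Cmpd 1 rat 4 and 7 higher without Cmpd 1 rat 4. The DEG count fell to 1 without Food matched rat 1 or 2 or Cmpd 1 rat 3, 4 or 5, each of which ended the call of Hk3. For Food matched against Obese DESeq2 called 1 member lower, and leaving out 1 rat gave 0 to 1 (1 without Food matched rat 5). For Cmpd 1 against Obese, library size alone gave 7 higher and 0 lower, no filter gave 2 higher, DESeq2 gave 4 lower, and fitting only the groups compared gave 4 lower. Leaving out 1 rat there gave 2 to 5 higher and 0 to 5 lower, so these few calls depended on single rats, namely Lean rats 2 and 5, Obese rats 1, 3, 4 and 5, Food matched rat 4 and all 5 Cmpd 1 rats. For Cmpd 1 against Lean, library size alone gave 9 higher, and leaving out 1 rat gave 4 to 7, with 7 without Cmpd 1 rat 3. The cause was not tested.

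Replicate numbers did not pair the rats. Deviations of same-numbered rats from their group means correlated at 0.006 on average (−0.102 to 0.145 over 30 pairs), and 6 of 20 rats correlated best with their own number. With the replicate block 1 member was lower in Cmpd 1 versus Obese, where the fit without it had 2, 8 were higher in Cmpd 1 versus Food matched instead of 9, and the counts in Obese versus Lean were 11 and 18 as without it.

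No member called in a main contrast changed its direction under any alternative run. Among single calls, 35 and 14 were lost when 1 rat was left out (Cmpd 1 versus Food matched and Obese versus Lean), and 285 and 566 were kept. Other settings lost 8 and 8 and kept 120 and 253. Library size alone moved the median of all genes by at most 0.057 on the log2 scale. Aldoc and Tpi1, at about 2 CPM, had wide intervals.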
